A study of Homo sapiens with 24 samples.

Results

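The E2F transcription factors and the retinoblastoma (RB) family were followed by 10 gene symbols, E2F1 to E2F8, RB1 and RBL1, chosen by symbol. They matched 11 of the 48162 genes in the deposited count table, because RBL1 labels 2 genes. The RNA came from PPC1, a human prostate cancer cell line, in which polyploid giant cancer cells (PGCC) were induced by radiation. There were 4 conditions with 6 libraries each, 24 in all. UT cells were the untreated parental population, which received no radiation and was not filtered. UT + LCL cells were the same parental population exposed to 5 μM LCL521 for the 5 hours before harvest. PGCC were PPC1 cells that received 8 Gy on day 2, were harvested on day 5 (per the labels) and were enriched on a 20 micron strainer. PGCC + LCL cells were PGCC exposed to the same dose of LCL521 for 5 hours. LCL521 inhibits acid ceramidase, the enzyme encoded by ASAH1. Every library came from the same cell line, and each PGCC sample is a size-enriched population whose purity the labels do not give. Radiation, enrichment by size and the giant state cannot be told apart in the comparison of PGCC with UT.

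E2F proteins bind the promoters of genes for DNA replication and cell cycle progression, mostly as partners of DP proteins. E2F1, E2F2 and E2F3 activate their targets when they are free of RB1. E2F4 and E2F5 act mainly as repressors together with RBL1 and RBL2, the pocket proteins p107 and p130, in the DREAM complex. E2F6 represses through Polycomb proteins without binding RB family members. E2F7 and E2F8 are atypical factors that bind without DP and lower the same targets late in S phase. Cyclin-dependent kinases phosphorylate the pocket proteins and thereby release E2F. Cells that replicate without dividing, such as trophoblast giant cells and polyploid hepatocytes, are known for their use of E2F1, E2F7 and E2F8.

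E2F factors are known to control some genes of their own family. The upstream sequences of 5 members are shown because they differ in exact matches to the E2F motifs searched. Windows came from RefSeq (GRCh38.p14) for 8 of the 10 members, all but E2F5 and E2F8, and each ran from 250 bases before the start to 50 after it. The window listed for RB1 lay 172724 bases from the annotated start of the gene and was left out. The motifs TTTCCCGC, TTTGGCGC and TTTCGCGC were searched on both strands, with overlapping matches counted separately. At least 1 of them was found in 961 of 35116 windows (2.74%), TTTCCCGC in 1.63%, TTTGGCGC in 0.652% and TTTCGCGC in 0.515%. Members with a match were E2F1, E2F2, E2F3 and RBL1. E2F1 held TTTGGCGC 20 bases before its start, E2F2 held it 42 bases before, and RBL1 held TTTCGCGC 26 bases before and TTTGGCGC 16 bases before. E2F3 held TTTCCCGC on the reverse strand, 53 bases before the start, in the first of its 2 windows. No match was found in the windows of E2F4, E2F6 and E2F7. Other forms of the E2F site were not searched, so a window without a match is not shown to lack one. The 250 upstream bases are printed 5′ to 3′ on the strand of the gene, with matches in capitals, and with E2F7 as the member without a match.
E2F1, chr20:33686386-33686635, minus strand: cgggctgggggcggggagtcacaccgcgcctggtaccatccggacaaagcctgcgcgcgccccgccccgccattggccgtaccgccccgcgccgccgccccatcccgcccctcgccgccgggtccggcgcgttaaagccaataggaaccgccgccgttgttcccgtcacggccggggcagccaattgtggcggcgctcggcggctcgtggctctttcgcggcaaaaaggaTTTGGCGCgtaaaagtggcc
E2F2, chr1:23531234-23531483, minus strand: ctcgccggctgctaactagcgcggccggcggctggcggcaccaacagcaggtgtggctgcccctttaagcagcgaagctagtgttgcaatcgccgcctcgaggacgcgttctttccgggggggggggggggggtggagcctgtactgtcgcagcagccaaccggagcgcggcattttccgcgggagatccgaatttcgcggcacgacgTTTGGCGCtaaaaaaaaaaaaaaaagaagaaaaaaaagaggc
RBL1, chr20:37095998-37096247, minus strand: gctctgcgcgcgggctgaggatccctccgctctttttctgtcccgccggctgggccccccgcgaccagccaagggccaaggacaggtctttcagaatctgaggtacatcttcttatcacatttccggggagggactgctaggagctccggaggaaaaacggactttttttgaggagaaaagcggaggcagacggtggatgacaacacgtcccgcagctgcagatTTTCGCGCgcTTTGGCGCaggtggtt
E2F3, chr6:20401629-20401878, plus strand: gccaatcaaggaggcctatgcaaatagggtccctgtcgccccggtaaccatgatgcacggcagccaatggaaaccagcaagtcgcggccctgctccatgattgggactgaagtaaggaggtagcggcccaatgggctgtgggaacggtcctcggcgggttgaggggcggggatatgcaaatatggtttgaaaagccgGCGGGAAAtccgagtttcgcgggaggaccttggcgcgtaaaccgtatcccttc
E2F7, chr12:77065570-77065819, minus strand: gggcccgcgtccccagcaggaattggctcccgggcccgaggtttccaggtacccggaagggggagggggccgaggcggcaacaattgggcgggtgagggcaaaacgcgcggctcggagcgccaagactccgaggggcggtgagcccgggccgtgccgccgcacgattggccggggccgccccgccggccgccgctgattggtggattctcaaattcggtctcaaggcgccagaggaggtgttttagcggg

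Counts summed to between 14835246 and 19906601 per library, so that a floor of 3 counts stood at 0.151 to 0.202 CPM, the counts scaled to a common library size. In all other CPM values TMM factors, which adjust for composition, entered the library size. The keratins KRT8 and KRT18 lay at 51.1 to 220.5 and 142.2 to 268.7 CPM, while the prostate luminal marker KLK3 was at 0 counts in every library. The epithelial markers EPCAM and CDH1 were low, at 0 to 0.835 and 1.05 to 6.52 CPM. The first principal component of log2 CPM (55.7% of the variance) separated PGCC from parental libraries. The second (16.5%) set the libraries of replicates 4 and 5 apart from the other 4 replicates in all conditions, with scores of 13.3 or more against -3.94 or less. For PGCC against UT each tested member is therefore given with and without these libraries. Nothing in the labels says that the 6 libraries of a condition came from separate cultures, so p-values measure the spread between these samples, which may be technical. Libraries with the same replicate number deviated together in every comparison, and a fit with the number as a block is given where it changed a call.

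Of the 11 genes, 9 had enough counts to be tested. E2F8 had 12 counts in all 24 libraries and at most 3 in any of them, so that every library lay at or under the floor and no fold change was computed. The second RBL1 gene (ENSG00000269846), which overlaps the start of RBL1 on the opposite strand, had 16 counts in all and at most 4 in a library. All values of RBL1 below are those of ENSG00000080839. The strand setting of the counting is not given in the sources used here, so reads of RB1 and of LPAR6, which lies inside RB1 on the other strand, and reads of E2F5 and its antisense neighbour C8orf59 may be mixed. Mean LPAR6 was 33.7 CPM in UT and 30.0 CPM in PGCC, and mean C8orf59 5.77 and 4.55 CPM.

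Levels of different genes were compared as CPM per kilobase of the deposited gene length. E2F4 was the most abundant member in every condition, with 58.4 ± 5.86 CPM per kilobase in UT and 42.3 ± 3.03 in PGCC (SD, n = 6). Its range did not overlap that of the next gene in any condition. In UT, E2F3 followed with 16.8 ± 1.78 and E2F6 with 11.96 ± 2.46 CPM per kilobase, and the ranges of these neighbours overlapped. E2F1 (9.11 ± 5.53), E2F7 (8.24 ± 3.93) and RB1 (8.22 ± 0.958 CPM per kilobase) came next in UT and overlapped each other. E2F5 (4.88 ± 0.396), RBL1 (2.98 ± 1.16) and E2F2 (1.40 ± 0.993 CPM per kilobase) were the lowest of the tested members in UT, RBL1 overlapping with both of its neighbours.

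The order differed in PGCC, where E2F1 stood at rank 2 instead of 4 and RB1 at rank 3 instead of 6. E2F1 had 24.8 ± 3.57 CPM per kilobase in PGCC, with a range that overlapped neither E2F4 above it nor RB1 below it. RB1 (15.7 ± 1.51), E2F3 (13.2 ± 1.61), E2F7 (11.7 ± 1.64) and E2F6 (11.0 ± 1.62 CPM per kilobase) followed, each overlapping its neighbour. E2F5 (2.19 ± 0.375 CPM per kilobase) was now the lowest tested member and overlapped E2F2 (2.34 ± 0.603). The ranks were the same when levels were scaled to TPM, which divides by length before scaling each library.

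The summed level per length of the E2F genes overlapped between all 4 conditions, while its make-up differed. The sum was 110.8 ± 9.09 CPM per kilobase in UT, 107.6 ± 7.66 in UT + LCL, 107.5 ± 5.63 in PGCC and 108.5 ± 4.98 in PGCC + LCL. E2F1 made up 7.96% ± 4.52 of it in UT and 23.0% ± 2.30 in PGCC, and the ranges did not overlap (1.84% to 12.2% and 20.1% to 26.6%). E2F4 made up 52.7% ± 3.15 in UT and 39.4% ± 1.75 in PGCC (48.6% to 56.1% and 36.2% to 41.4%). The 3 activators together summed to 27.3 ± 7.63 CPM per kilobase in UT and 40.3 ± 3.78 in PGCC, and the 2 repressors E2F4 and E2F5 to 63.3 ± 5.89 and 44.5 ± 3.02. Without replicates 4 and 5 the activators averaged 32.1 CPM per kilobase in UT and 39.6 in PGCC. These shares were compared as a description, without a test.

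**Figure D1:**
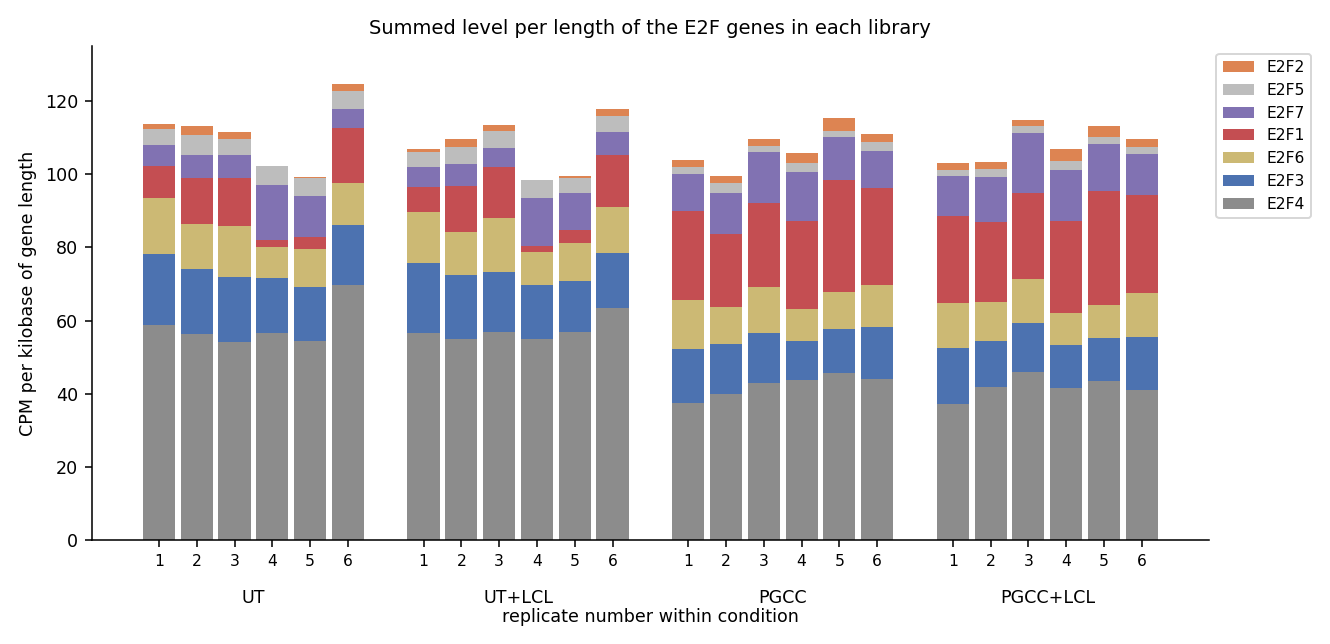
Stacked bars give CPM per kilobase of gene length for the 7 expressed E2F genes in each of the 24 libraries, grouped by condition and numbered by replicate. The E2F1 segment is thin in parental replicates 4 and 5 and wide in all PGCC libraries, and the E2F4 segment is shorter in PGCC than in UT.

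PGCC were compared with UT to ask which genes differ between giant and parental cells. E2F1 and RB1 were higher in PGCC in every replicate, E2F3, E2F4 and E2F5 were lower in every replicate, and E2F6 was not past the threshold. RBL1 was also called higher, and E2F2 and E2F7 were not. Of the 9 members tested, 3 were higher and 3 lower at an adjusted p under 0.05, where 47.4% of 13812 genes were called in either direction, 23.1% higher and 24.3% lower. A count of 6 of 9 genes is read against that background, and nothing is drawn from it about the family as a whole. The same test on library totals instead of TMM factors called 3820 genes higher and 2521 lower, against 3186 and 3355. The ranges of UT and PGCC did not overlap for 5 members, E2F1, E2F3, E2F4, E2F5 and RB1, as for 26.8% of 14555 genes. On library totals the ranges of E2F3 overlapped, and those of E2F1, E2F4, E2F5 and RB1 did not. Higher and lower refer to a gene's share of the counts in a library, and the amount of RNA per cell was not measured. A different share in bulk RNA can come from a different mix of cells or from a different share within cells, which cannot be told apart here.

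E2F1 (chromosome 20, 32263489 to 32274210 on hg19) encodes the first described activator of the family. Its level in UT ran from 4.72 to 38.2 CPM with a median of 26.4, and in PGCC from 50.1 to 76.7 CPM with a median of 60.7. All PGCC libraries lay above all UT libraries, and the 2 lowest UT libraries were replicates 4 and 5, with 4.72 and 8.14 CPM. E2F1 was 2.77-fold higher in PGCC (log2 fold change 1.47 ± 0.386 SE, edgeR adjusted p = 0.00618). The difference of mean log2 CPM reached the smallest two-sided p of the exact permutation test of 6 against 6 libraries, 0.00216. Without replicates 4 and 5 the fold was 1.94 (log2 fold change 0.95 ± 0.153, edgeR adjusted p = 1.62e-04), and the mean paired difference of these 2 replicates alone was 3.43 on the log2 CPM scale, or 10.8-fold. The size of the E2F1 difference thus rested partly on 2 parental libraries and its direction did not.

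E2F2 (chromosome 1, 23832922 to 23857712 on hg19), a second activator, was seen at lower levels. It ran from 0.862 to 13.5 CPM in UT with a median of 8.27, and from 9.59 to 17.5 CPM in PGCC with a median of 10.9. The ranges overlapped, and UT replicates 4 and 5 stood far below the others, at 0.862 and 1.65 CPM against 6.62 or more. The log2 fold change was 0.77 ± 0.475 (edgeR adjusted p = 0.198). Replicates 4 and 5 had paired differences of 3.86 and 3.32 on the log2 CPM scale, while the other 4 pairs lay between -0.38 and 0.53. Without those 2 replicates the log2 fold change was 0.03, with a 95% interval of -0.36 to 0.43.

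E2F3 (chromosome 6, 20402398 to 20493941 on hg19), the third activator, went the other way. It ran from 70.4 to 91.4 CPM in UT with a median of 80.4, and from 50.2 to 70.2 CPM in PGCC with a median of 65.3. The ranges did not overlap, but the lowest UT libraries, replicates 4 and 5, stood next to the highest PGCC library. E2F3 was 1.25-fold lower in PGCC (log2 fold change -0.32 ± 0.0974, edgeR adjusted p = 0.0136), and all 6 pairs were lower, by 0.18 to 0.49 on the log2 CPM scale. The mean paired difference without replicates 4 and 5 was -0.32 on that scale. On library totals the call was lost (log2 fold change -0.23, edgeR adjusted p = 0.0571). E2F3 was thus lower on both scales and past the threshold on one.

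E2F7 (chromosome 12, 77415027 to 77459360 on hg19), an atypical repressor, varied among the parental libraries in the direction opposite to E2F1 and E2F2. It ran from 29.0 to 85.6 CPM in UT with a median of 36.3, and from 57.1 to 79.9 CPM in PGCC with a median of 65.6. The 2 UT libraries that overlapped PGCC were replicates 4 and 5, with 85.6 and 64.0 CPM, and the other 4 lay at 29.0 to 36.8. Over all libraries the log2 fold change was 0.53 ± 0.242 (edgeR adjusted p = 0.0875). Blocked by replicate, a fit that called 56.2% of all genes, it was 0.63 ± 0.175 (edgeR adjusted p = 0.0124), and limma-voom called it without the block (0.63, adjusted p = 0.0328). Without replicates 4 and 5 E2F7 was 1.97-fold higher in PGCC (log2 fold change 0.98 ± 0.118, edgeR adjusted p = 1.56e-05), and leaving out replicate 4 alone also took it past the threshold (0.74, edgeR adjusted p = 0.00757). The pairs of replicates 4 and 5 differed by -0.16 and 0.06 on the log2 CPM scale. The ratio of E2F7 to E2F1, per length, lay between 0.332 and 0.662 in the other 4 UT libraries and was 7.92 and 3.43 in replicates 4 and 5, against 0.380 to 0.603 in PGCC.

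**Figure D2:**
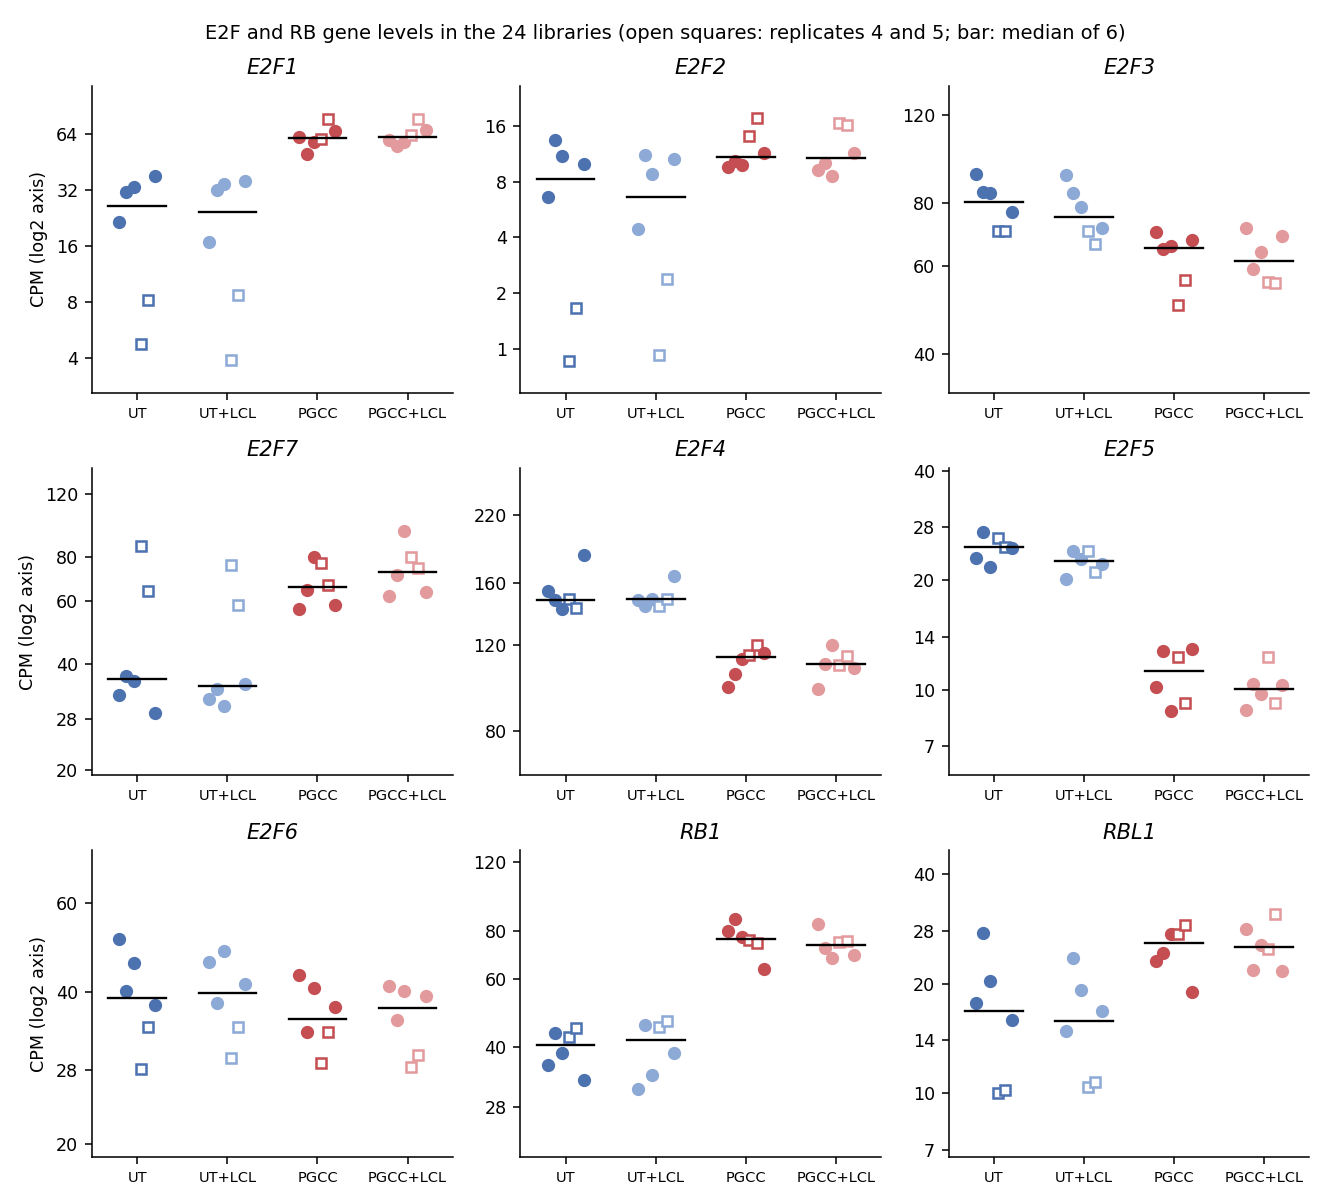
Each panel plots CPM of 1 gene on a log2 axis in UT, UT + LCL, PGCC and PGCC + LCL, with 1 point per library, open squares for replicates 4 and 5 and a bar at the median of 6. Among UT libraries the open squares lie lowest for E2F1, E2F2, E2F3, E2F6 and RBL1 and highest for E2F7, and they lie among the others for E2F4 and E2F5.

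E2F4 and E2F5, the repressors that work with pocket proteins, were both lower in PGCC. E2F4 (chromosome 16, 67226072 to 67232821 on hg19) ran from 141.8 to 182.6 CPM in UT with a median of 147.9, and from 98.2 to 119.7 CPM in PGCC with a median of 113.4. The groups did not overlap, the highest UT library being replicate 6, and E2F4 was 1.36-fold lower in PGCC (log2 fold change -0.44 ± 0.0814, edgeR adjusted p = 5.33e-04). E2F5 (chromosome 8, 86089460 to 86129387 on hg19) ran from 21.7 to 27.2 CPM in UT with a median of 24.7, and from 8.70 to 12.9 CPM in PGCC with a median of 11.2. This was the largest fall among the members, 2.20-fold (log2 fold change -1.14 ± 0.123, edgeR adjusted p = 5.58e-06), and every pair fell by 0.92 to 1.42 on the log2 CPM scale. Replicates 4 and 5 lay within the range of the others for E2F5 in both conditions, and without them the log2 fold changes were -0.51 for E2F4 and -1.08 for E2F5.

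E2F6 (chromosome 2, 11584501 to 11606297 on hg19), the Polycomb-associated repressor, ran from 28.2 to 50.9 CPM in UT and from 28.9 to 43.3 CPM in PGCC, with medians of 38.9 and 35.4. The ranges overlapped almost fully. The log2 fold change of -0.10 had a 95% interval of -0.40 to 0.19 (edgeR adjusted p = 0.569). In UT the lowest libraries were replicates 4 and 5, and without them the log2 fold change was -0.14, with an interval of -0.39 to 0.10.

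RB1 (chromosome 13, 48877887 to 49056122 on hg19), the retinoblastoma gene that restrains the activators, was the member with the most even rise. It ran from 32.9 to 44.7 CPM in UT with a median of 40.7, and from 63.7 to 85.9 CPM in PGCC with a median of 76.2. No UT library came near the PGCC libraries, and replicates 4 and 5 lay in the upper part of the UT range. RB1 was 1.94-fold higher in PGCC (log2 fold change 0.96 ± 0.0965, edgeR adjusted p = 2.9e-06), and the 6 pairs rose by 0.73 to 1.14 on the log2 CPM scale. Leaving out replicates 4 and 5 gave 1.05 ± 0.109.

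RBL1 (chromosome 20, 35624752 to 35724398 on hg19), which encodes the pocket protein p107, ran from 10.0 to 27.6 CPM in UT with a median of 16.8, and from 19.0 to 29.0 CPM in PGCC with a median of 25.9. The ranges overlapped, and the lowest UT libraries were again replicates 4 and 5, at 10.0 and 10.2 CPM against 15.9 or more. RBL1 was 1.51-fold higher in PGCC (log2 fold change 0.59 ± 0.216, edgeR adjusted p = 0.0359). The call was lost without replicate 1, 3, 4, 5 or 6, with adjusted p between 0.0508 and 0.115. Without replicates 4 and 5 together the log2 fold change was 0.23 with a 95% interval of -0.12 to 0.58 (edgeR adjusted p = 0.238). The ratio of E2F1 to RB1, per length, was 1.15 to 2.24 in the other 4 UT libraries, 0.214 and 0.352 in UT replicates 4 and 5, and 1.13 to 2.01 in PGCC. The ratio of RB1 to RBL1, per length, was 1.85 to 2.43 in the other 4 UT libraries, 4.99 and 5.15 in UT replicates 4 and 5, and 3.02 to 4.14 in PGCC.

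**Figure D3:**
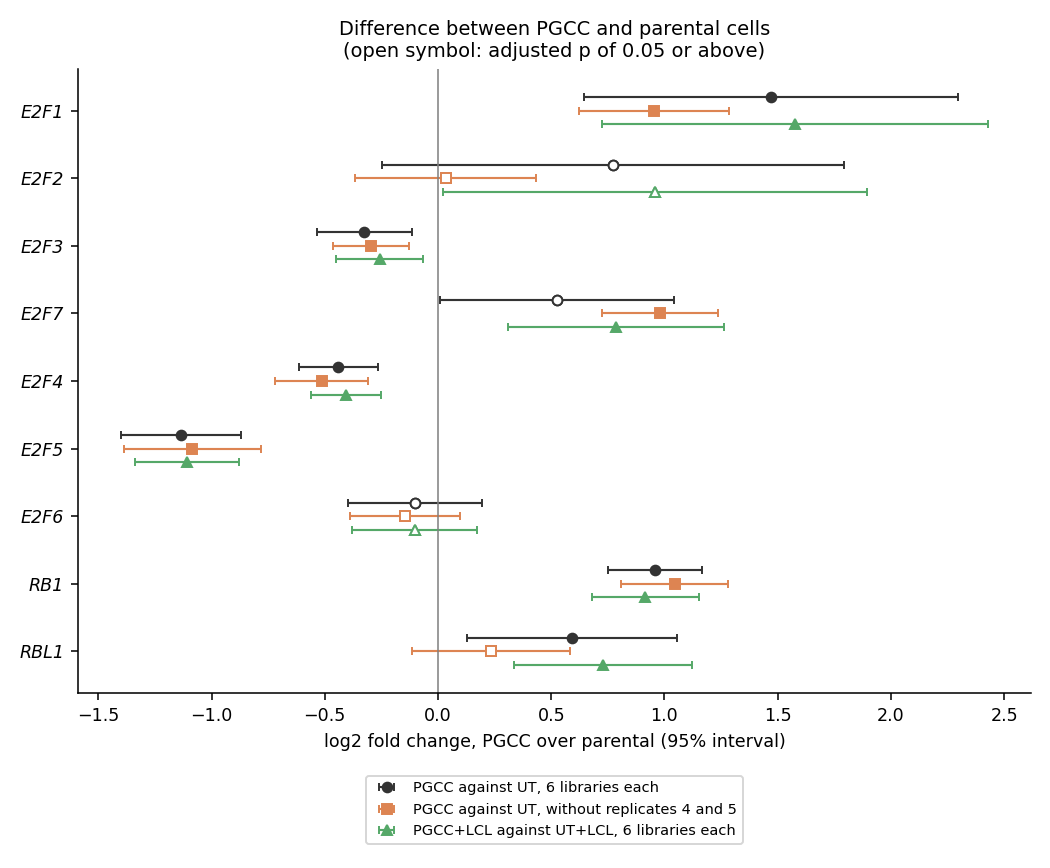
Points give the log2 fold change of PGCC over parental cells for the 9 tested members and bars its 95% interval, for all libraries, without replicates 4 and 5, and for the populations with LCL521; open symbols did not pass the adjusted threshold. E2F1, E2F3, E2F4, E2F5 and RB1 are filled in all 3 settings and no member changes sign, while E2F2 and RBL1 move toward 0 and E2F7 away from it without replicates 4 and 5.

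The same populations were compared under LCL521, which gave separate libraries of both. Of 9 members, 4 were higher and 3 lower in PGCC + LCL than in UT + LCL, where 48.9% of 13818 genes were called, 25.0% higher and 23.9% lower. The block called the same number of members (7) and 56.3% of all genes. The ranges did not overlap for E2F1, E2F4, E2F5 and RB1, as for 28.1% of 14555 genes. E2F1 ran from 3.87 to 35.8 CPM in UT + LCL and from 54.9 to 77.5 in PGCC + LCL (log2 fold change 1.58 ± 0.398, edgeR adjusted p = 0.00452). RB1 ran from 31.2 to 46.8 and from 68.1 to 83.0 CPM (0.92 ± 0.110, edgeR adjusted p = 1.15e-05). E2F5 ran from 20.1 to 24.1 and from 8.76 to 12.3 CPM (-1.11 ± 0.107, edgeR adjusted p = 1.54e-06). The difference between the fold changes with and without LCL521 was tested for every member and was called for none.

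The members with uneven parental libraries were again uneven under LCL521. E2F7 was called in this comparison (log2 fold change 0.79 ± 0.223, edgeR adjusted p = 0.00955), and leaving out replicate 3 took it to an adjusted p of 0.0533. RBL1 was called with 0.73 ± 0.184 (edgeR adjusted p = 0.00455), and with 0.43 (edgeR adjusted p = 0.0247) when replicates 4 and 5 were left out and 52.5% of all genes were called. E2F2 was not (0.96 ± 0.438, edgeR adjusted p = 0.0842), though limma-voom called it (1.34, adjusted p = 0.027), and its UT + LCL replicates 4 and 5 had 0.923 and 2.37 CPM against 4.43 or more in the others. E2F3 fell by 0.26 on the log2 scale (edgeR adjusted p = 0.029), a call that was lost on library totals and without replicate 2, 3 or 4 (adjusted p between 0.0607 and 0.108). E2F4 was 1.32-fold lower (edgeR adjusted p = 3.33e-04). E2F6 had a log2 fold change of -0.10 (edgeR adjusted p = 0.532). The low E2F1 and high E2F7 of parental replicates 4 and 5 were thus present both with and without the compound.

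LCL521 itself was tested within each population, to ask whether 5 hours of acid ceramidase inhibition changed expression. No member passed the threshold in UT, in PGCC or in the test of the difference between the 2 effects, with or without the replicate block. In UT edgeR called 0 of 13277 genes (0.0%) and 71 had an unadjusted p under 0.05; DESeq2 and limma-voom also called 0. With the block 115 genes (0.866%) passed, none of them a member. In PGCC 1 of 14151 genes (0.00707%) was called, and 234 (1.65%) with the block, again no member. The test of the difference called 0 of 14555 genes (0.0%), and 60 had an unadjusted p under 0.05.

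E2F7 in PGCC came closest. It ran from 57.1 to 79.9 CPM in PGCC and from 62.1 to 94.9 CPM in PGCC + LCL, and all 6 pairs were higher with LCL521, by 0.06 to 0.25 on the log2 CPM scale. The log2 fold change with the block was 0.14 with a 95% interval of 0.06 to 0.22 (edgeR adjusted p = 0.0646), and without the block it was 0.15, with an interval of -0.10 to 0.39. In UT 1 of 6 pairs was higher for E2F7. For RB1 the blocked log2 fold change was -0.04 in PGCC, with an interval of -0.13 to 0.05, and 0.01 in UT, with an interval of -0.11 to 0.14. For E2F1 the blocked intervals were -0.05 to 0.12 in PGCC and -0.21 to 0.08 in UT. E2F3 was lower with LCL521 in all 6 UT pairs, the largest paired difference being -0.11 on the log2 CPM scale (blocked log2 fold change -0.04, edgeR adjusted p = 0.693). On library totals 3 of these pairs were lower and 3 higher.

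The proteins that work with the members were followed in lists of named genes, described by counts and medians beside the median log2 fold change of -0.03 over all 13812 genes, of which 23.1% were called higher and 24.3% lower. The counts of the short lists are few genes each, and nothing particular to a list is read from them. Among the DP partners and RBL2, 1 of 3 tested genes rose in PGCC against UT and none fell (median 0.22). TFDP1, the main DP partner, rose (0.41 ± 0.146, edgeR adjusted p = 0.0303), while TFDP2 (0.22) and RBL2 (0.15), the pocket protein p130, did not pass. Both were high in UT replicates 4 and 5, RBL2 at 116 and 119 CPM against 49.2 to 62.8 in the others, and without these replicates, a fit that called 54.6% of all genes, all 3 were called higher. TFDP3 had no counts.

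The MuvB complex forms DREAM with E2F4 and p107 or p130, and with B-MYB it activates mitotic genes. Genes of its core and its partners mostly rose, with the largest rises in the partners MYBL2, MYBL1 and FOXM1. Of 7 tested, which did not include LIN37, 5 were higher and none lower (median 0.90). MYBL2, which encodes B-MYB, had a log2 fold change of 3.20 ± 0.204 (24.5 ± 8.05 CPM in UT and 222 ± 20.2 in PGCC). MYBL1 rose by 2.35 ± 0.324, FOXM1, the transcription factor of late cell cycle genes, by 2.10 ± 0.147, LIN54 by 0.90 ± 0.169 and LIN9 by 0.66 ± 0.108. The core genes LIN52 (0.10) and RBBP4 (-0.17) did not pass, and RBBP4 was called lower with the block or without replicates 4 and 5.

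The kinases and cyclins that act on the pocket proteins were split. Of 8 tested, 3 rose and 2 fell (median -0.05). CCNA2 (1.92 ± 0.190), its kinase CDK2 (1.29 ± 0.176) and the D-cyclin kinase CDK6 (0.61 ± 0.135) were higher in PGCC. CCNE1, the G1/S cyclin and itself an E2F target, fell by 2.09 ± 0.452 on the log2 scale, from 8.53 ± 4.91 CPM in UT to 1.96 ± 0.746 in PGCC, and CDK4 fell by 0.59 ± 0.0851. In UT replicates 4 and 5 CCNE1 stood at 2.13 and 2.54 CPM, within the range of PGCC (0.742 to 2.82), against 9.73 or more in the other UT libraries. CCND1 (-0.32), CCND3 (0.23) and CCNE2 (-0.83) did not pass, and CCND1 and CCNE2 were called lower without replicates 4 and 5.

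Among the inhibitors of these kinases 2 of 6 rose and 1 fell (median -0.23). CDKN1A, which encodes p21, a p53 target, had a log2 fold change of 3.74 ± 0.366 and ran from 5.06 to 14.4 CPM in UT and from 51.6 to 185.1 in PGCC. CDKN2D (p19) rose by 1.39 ± 0.167. CDKN2A, the locus of p16 and p14ARF, was high in UT at 305 ± 54.3 CPM and fell by 0.91 ± 0.114 on the log2 scale to 160 ± 15.8 in PGCC. CDKN2B had a log2 fold change of -0.73 over all libraries and was called higher without replicates 4 and 5 (1.01 ± 0.0979), so that its direction rested on those libraries. CDKN1B (-0.17) and CDKN2C (-0.30) did not pass, and CDKN2C was called lower without replicates 4 and 5 (-0.61 ± 0.137). Of the corepressors that RB proteins and E2F6 recruit, 1 of 11 rose and 6 fell (median -0.33). Named after their values were seen, HDAC1, the deacetylase that pocket proteins recruit, rose by 0.30 ± 0.0634, and L3MBTL2 (-0.67 ± 0.132) and MGA (-0.64 ± 0.176), subunits of the E2F6 complex, fell. Of 3 germline genes known to be silenced by E2F6, only STAG3 had enough counts, and it had a log2 fold change of 0.24 (edgeR adjusted p = 0.518).

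**Figure D4:**
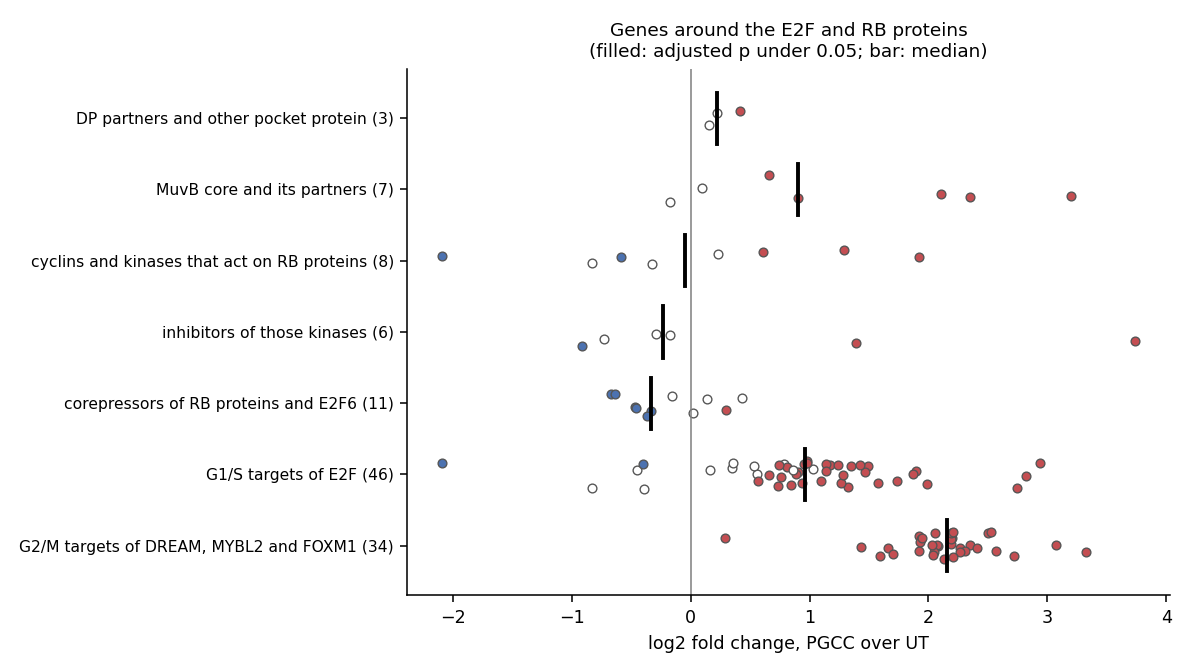
Each point is the log2 fold change of 1 gene in PGCC over UT, by list, with the number of tested genes in parentheses, filled where the gene passed the adjusted threshold, and a bar marks the list's median. All 34 G2/M genes lie above 0 and are filled, and the lists of cyclins and kinases and of inhibitors spread to both sides.

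Most G1/S target genes and all G2/M target genes were higher in PGCC. Of 46 genes of DNA replication and G1/S known as E2F targets, 33 rose, 2 fell and 11 did not pass (median 0.97). The largest rises were TK1, thymidine kinase, at 2.93 ± 0.220, CDC45, a helicase subunit, at 2.82 ± 0.194 and RRM2, a ribonucleotide reductase subunit, at 2.74 ± 0.294. CCNE1 and MCM6 (-0.40 ± 0.115) were the genes that fell. All 34 G2/M genes that DREAM, MYBL2 and FOXM1 are known to control rose, with a median of 2.16 and led by KIF20A (3.33 ± 0.353), ANLN (3.07 ± 0.171) and AURKB (2.72 ± 0.245). Both lists were chosen with earlier results of these data known, so their counts are a description and not an independent test. Without replicates 4 and 5, where 27.7% of 13809 genes were called higher and 26.9% lower, the G1/S list had 34 of 46 higher and 5 lower with a median of 0.70, and the G2/M list 34 of 34 higher with a median of 2.47. In the populations with LCL521 34 of 46 G1/S genes rose and 3 fell, and all 34 G2/M genes rose. The lists of partners, MuvB genes, cyclins and kinases, and inhibitors gave the same numbers of rises and falls there as without LCL521, and of the corepressors 2 rose and 6 fell. Under LCL521 itself no gene of any list was called in either population. At least 1 of the 3 E2F motifs was found in the RefSeq windows of 23 of 40 G1/S genes and 3 of 29 G2/M genes that had one, or 41.4% and 10.3% of the windows of these lists against 2.74% of all windows. Other lists had 1 of 7 windows (DP partners and RBL2, 14.3%), 2 of 15 (corepressors, 13.3%) and 1 of 11 (MuvB, 9.09%). Cyclins and kinases, inhibitors and germline genes had 0.0%. The G1/S genes were listed as known E2F targets, so their share is not independent of that choice.

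In parental libraries the G1/S list and E2F1 were low in the same 2 replicates, and the G2/M list was not. The mean log2 CPM of the G1/S list was 3.78 and 4.21 in UT replicates 4 and 5 and 4.88 to 5.35 in the other 4, and it was 5.80 to 5.98 in all PGCC libraries. The mean of the G2/M list was 4.77 and 5.24 in UT replicates 4 and 5, above the other 4 (3.57 to 4.66), and 6.46 to 6.77 in PGCC. CDKN2A was higher in UT replicates 4 and 5 (348 and 393 CPM) than in the others (249 to 287), and CDKN1A lower (5.06 and 6.08 against 11.3 to 14.4 CPM). What sets these replicates apart is not given in the labels and was not tested. The 4 libraries lowest in E2F1, replicates 4 and 5 of UT and UT + LCL, were also the 4 lowest in the mean of the G1/S list.

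**Figure D5:**
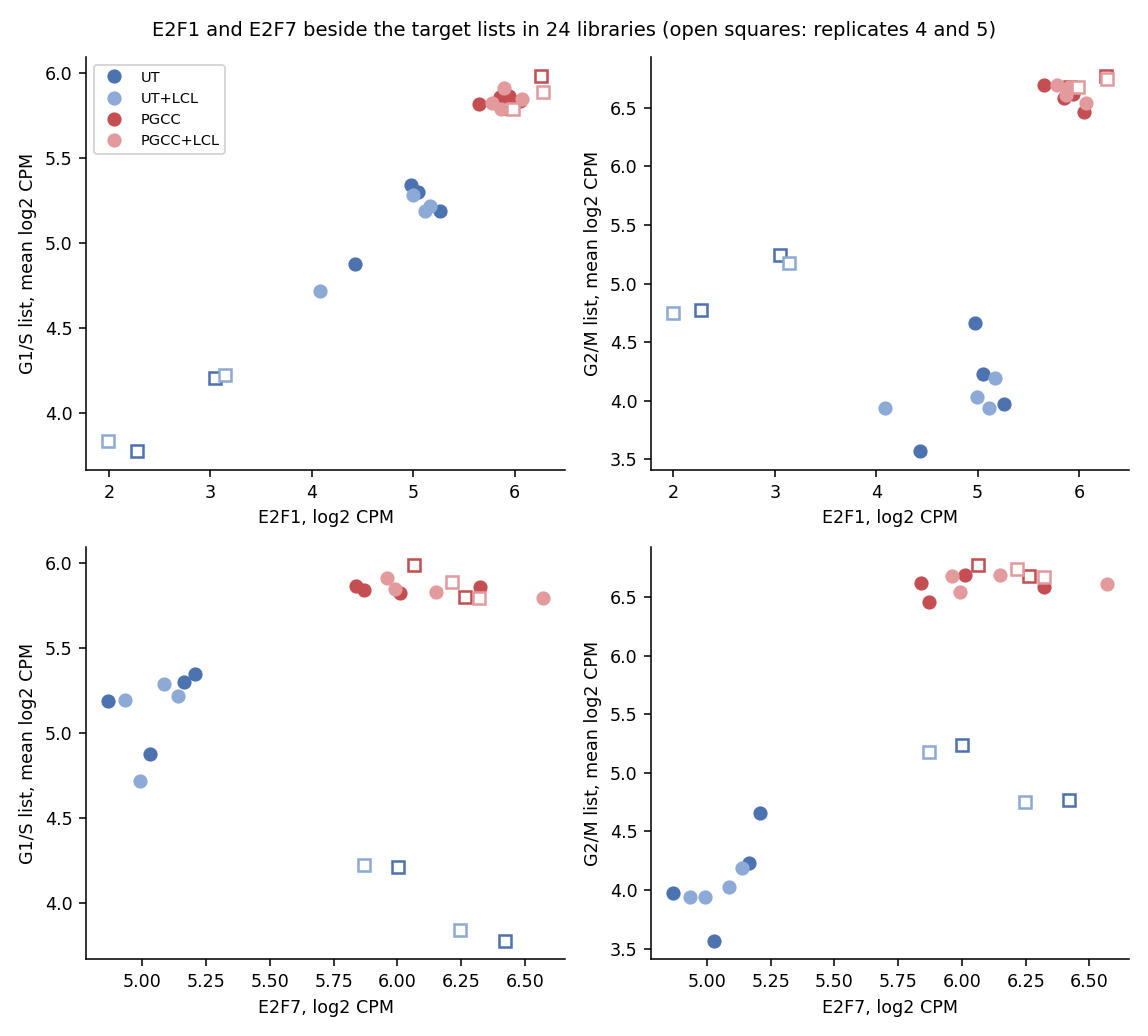
Each point is 1 of 24 libraries, with log2 CPM of E2F1 (top) or E2F7 (bottom) on the x axis and the mean log2 CPM of the G1/S list (left) or the G2/M list (right) on the y axis; open squares are replicates 4 and 5. Parental open squares lie at the low end of E2F1 and of the G1/S list, above the other parental libraries and within the range of all PGCC libraries for E2F7, and between the other parental libraries and PGCC for the G2/M list.

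Genes with the most similar profiles were taken from 10655 genes whose log2 CPM averaged 2 or more, as those with the smallest root mean square difference from the member's centred log2 CPM over the 24 libraries. For E2F1 they were MCM10 (0.242), DTL (0.256) and HELLS (0.276), against a deviation of E2F1 from its own mean of 1.23. MCM10 acts in DNA replication and DTL in the ubiquitination of replication factors. RBL1 had SPIN4 (0.165), RPA2 (0.168) and ING2 (0.182), E2F7 had SLC4A7 (0.226), PHLDA1 (0.229) and LNP1 (0.231), and RB1 had NPNT (0.136), RECQL (0.138) and DPP4 (0.141). MCM10 was also on the G1/S list. E2F8 had too few counts for a profile. The measure follows shared differences between conditions as well as between libraries, and all profiles come from the same 24 libraries.

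Markers of other cell types were measured beside these differences. The 3 leukocyte markers summed to 0.410 to 2.77 CPM in UT and 2.35 to 3.99 CPM in PGCC, with PTPRC as the source and CD68 and CD3E at 0 counts in both. The 2 endothelial markers found in the table, CDH5 and KDR, summed to 0.785 to 3.78 CPM in UT and 1.90 to 5.01 CPM in PGCC. The 5 fibroblast markers summed to 51.1 to 134.8 CPM in UT and 83.2 to 205.9 CPM in PGCC. Mean COL1A2 was 64.2 CPM in UT and 111.5 in PGCC, mean PDGFRA 0.733 and 3.12, and mean COL1A1 8.40 and 7.01, while DCN and LUM stayed at or below 0.582 CPM in every library. The 4 epithelial markers summed to 241.8 to 361.7 CPM in UT and 291.7 to 416.7 CPM in PGCC. Nearly all of this came from the keratins, with mean KRT8 at 70.6 in UT and 177.2 in PGCC and mean KRT18 at 234.2 and 167.7 CPM. Mean EPCAM was 0.204 CPM in UT and 0.444 in PGCC, and mean CDH1 3.08 and 1.98. The part of these shifts in the differences of the members was not tested.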

How the data were processed

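RNA of PPC1 cells was measured by sequencing in 24 samples, 6 for each of 4 conditions. The authors deposited whole-number read counts per gene, not normalized, with symbols and coordinates on hg19. The submitters' processing notes name CASAVA, STAR, HTSeq and DESeq2, without versions, and the study's methods also name TopHat and Cufflinks. The strand setting of the counting is not given in the sources used here. Library totals lay between 14835246 and 19906601, and floors cover counting error only.

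Counts were scaled with TMM factors, filtered with filterByExpr (minimum count 10, minimum total 15) and tested with edgeR 4.0.16 (glmQLFit and glmQLFTest, R 4.3.3) for each pair of conditions, with Benjamini-Hochberg adjustment over all genes tested and a threshold of 0.05. The difference between the effects of LCL521 in both populations was an interaction term over all 24 libraries. Log2 CPM used a prior count of 2. Single genes were also compared with a two-sided exact permutation test over the 924 divisions of 6 against 6 libraries. DESeq2 1.42.0, limma-voom (limma 3.58.1), other scalings and filters, left-out libraries and a replicate block were alternatives. Scripts also used Python 3.11.15, SciPy 1.17.1 and pandas 2.3.3. Simulated counts were used to test only the edgeR fit, for PGCC against UT and for the interaction.

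Replicate numbers come from the labels. Same-numbered libraries deviated together from their group means in all 6 pairs of each comparison (correlation 0.237 to 0.411 in PGCC against UT, 0.171 to 0.443 with LCL521, 0.458 to 0.813 in UT + LCL against UT and 0.385 to 0.619 in PGCC + LCL against PGCC). The best correlated PGCC library had the same number for 5 of 6 UT libraries, and for 3 of 6 with LCL521. In both comparisons of LCL521 within a population it was 6 of 6. No 2 libraries of a condition agreed within sampling noise (60 pairs).

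Members and lists were chosen with earlier results of these data known. Named were all members, genes of the lists of partners, MuvB, cyclins and kinases, and inhibitors, the 3 largest rises and falls past the threshold in the G1/S and G2/M lists, and the 3 nearest profiles of RB1, RBL1, E2F1, E2F7 and E2F8. Outside this rule, the corepressors HDAC1, L3MBTL2 and MGA were named after their values were seen. STAG3 was named as the only germline gene with enough counts.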

Additional observations from a re-analysis of the deposited data

Results flagged for a closer look

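In UT, the highest library for E2F4, replicate 6 with 182.6 CPM, stood apart from the other 5 with a gap of 0.672 of the whole range, above the 95% critical value for 6 samples. In UT + LCL, replicate 6 was again the highest for E2F4, with 165.7 CPM and a gap of 0.761 of the range. These were the only such cases among 36 groups of 6 libraries (9 members in 4 conditions), and chance alone sets apart about 1 in 20 groups. Without replicate 6 the E2F4 difference between PGCC and UT kept its call.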

How the results depend on the processing

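Over the alternatives tried, the member differences between populations gave 324 values, of which 304 kept direction and side of the threshold, 13 lost the call, 7 gained it and none changed direction. The count of members called ranged from 5 to 7 in PGCC against UT and from 5 to 8 with LCL521. Over all genes the number called also moved, from 5529 of 13891 tested to 8881 of 13809 in PGCC against UT. With LCL521 it ran from 5734 of 13823 to 8035 of 29659, the latter without the filter. Without the filter it was 7675 of 29759 in PGCC against UT. The counts of members are read against these. Restricted to replicates 4 and 5, E2F7 had a mean paired difference of -0.0475 on the log2 CPM scale (the 2 pairs were -0.16 and 0.06) and of 0.08 on library totals, so its direction there was not settled and was not tested. The 477 values for LCL521 stayed uncalled, 39 of them with the other sign. With the replicate block, E2F7 passed in PGCC against UT and no other member's call changed. The pairing mattered for LCL521 over all genes. In UT the count of called genes was 0, 115 with the block, 168 with the block in DESeq2 and 3 with the block without replicates 4 and 5. In PGCC it was 1, 234 with the block, 193 with the block in DESeq2 and 129 with the block without replicates 4 and 5. Without the block it was 6 in DESeq2, and 0 in limma-voom, in a fit of all 24 libraries and without replicates 4 and 5, and 0 to 1 when single replicates were left out. The cause was not tested. Depth limits E2F8 and the second RBL1 gene, which lay near the floor of 3 counts.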
